A study of Mus musculus with 6 samples.

Results

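The T cell receptor β locus and the trypsinogen genes inside it were examined in messenger RNA of γδT17 cells of the mouse spleen, which are γδ T cells defined by their production of interleukin-17. The genes were taken by name: every gene whose symbol begins with Trbv, Trbd, Trbj or Trbc (the variable, diversity, joining and constant segments of the β chain), with Prss1, Prss2, Prss3 and the genes named Try and a digit (trypsinogens). Of 59 such genes in the GENCODE annotation, 9 had a row in the values used here, among 26771 genes listed in at least 1 library. Those 9 were Trbv1, Trbv12-2, Trbv13-2, Trbv15, Trbv16, Try4, Try5, Prss1 and Prss2. A gene with no row counted as 0. The genes were chosen by name, with earlier results of these data known. The only measured value that the name rule used was whether a gene was listed in at least 1 library. Whether a gene without a row had no fragments, no estimate, or a row not analysed here cannot be told apart.

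Induced cells came from splenocytes grown under a protocol built on the cytokines IL-1β and IL-23, harvested on day 8 and purified with a magnetic pan T cell kit, giving 3 libraries (Induced A, B and C, by mouse). Initial cells were sorted from uncultured splenocytes, giving 3 libraries from the same mouse letters (Initial A, B and C), and their sorting gate was not given in the sources used here. All animals of both groups were TCRβ-/- on the C57BL/6 background, so there was no group with an intact β chain. Which stretch of the locus the TCRβ-/- allele lacks, the age of the mice and whether animals were pooled were not given in the sources used here. Culture, day of harvest and way of purification all change together between the groups and cannot be told apart. The deposited values were FPKM (fragments per kilobase of transcript, scaled to a fixed number of mapped fragments), which set levels of different genes on a scale per length.

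In T cells the β chain gene is assembled by V(D)J recombination, in which the Rag recombinase joins a V, a D and a J segment, and the joined exon is spliced to a constant region. The V segments lie in a long array upstream of the D, J and C segments, and an enhancer beyond the last constant region drives the rearranged gene. In mice a cluster of trypsinogen genes sits between the V array and the first D segment. Trypsinogens are precursors of trypsin, the digestive serine protease, and their known site of synthesis is the acinar cell of the pancreas.

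Prss2 is the trypsinogen gene nearest to the D segments. It lies on chromosome 6, 41521787 to 41525079, on the plus strand (ENSMUSG00000057163, GRCm38), and ends 8.1 kb before the start of Trbd1. The locus from the start of Trbv1 to the end of Trbv31 spans 667.2 kb of chromosome 6. Promoter sequences from RefSeq (GRCm38.p6) were found for 4 of the 6 trypsinogen genes. The 150 bases before their starts are shown because these genes differ widely in level below. Capitals mark matches to 4 motifs, each searched on both strands. The core promoter box was spelled TATAAA. The E-box, of the kind that the acinar factor PTF1 binds, was spelled CACCTG. For RUNX factors the letters searched were TGTGGT. For GATA factors they were AGATAA.
Prss2, chr6:41521626-41521775, plus strand: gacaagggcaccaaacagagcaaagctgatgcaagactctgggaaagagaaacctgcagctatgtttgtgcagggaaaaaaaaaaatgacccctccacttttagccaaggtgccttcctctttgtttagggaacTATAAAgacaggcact
Prss1, chr6:41458780-41458929, plus strand: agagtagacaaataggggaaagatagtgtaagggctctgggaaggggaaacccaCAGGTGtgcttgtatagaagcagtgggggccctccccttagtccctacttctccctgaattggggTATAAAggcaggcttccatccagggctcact
Try4, chr6:41302122-41302271, plus strand: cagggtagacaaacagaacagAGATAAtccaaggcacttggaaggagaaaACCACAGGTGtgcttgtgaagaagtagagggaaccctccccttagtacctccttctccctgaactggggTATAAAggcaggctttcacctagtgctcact
Prss3, chr6:41377614-41377763, minus strand: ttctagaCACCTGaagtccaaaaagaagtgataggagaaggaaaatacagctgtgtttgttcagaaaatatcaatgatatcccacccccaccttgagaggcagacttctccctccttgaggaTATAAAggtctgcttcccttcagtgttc
All 4 stretches held 1 TATAAA, which 7.6% of 32851 promoter stretches of the same length held. CACCTG was matched once each in Prss1, Try4 and Prss3 and had no match in this window of Prss2, and 10.6% of all promoter stretches held it. TGTGGT and AGATAA were matched once each in Try4 and in none of the other 3, against 8.4% and 5.6% of all promoter stretches. The TGTGGT match in Try4 overlaps its CACCTG match. Aligned over 131, 135 and 124 bases, the Prss2 stretch was 67.9% identical to that of Prss1, 66.7% to Try4 and 73.4% to Prss3.

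From the step between low values, depth was estimated at 20600000 to 24000000 fragments in Induced and 20000000 to 22800000 in Initial libraries, and the numbers of fragments below are rough for that reason. The labelled cell type was checked against its markers. Trdc, the δ chain constant gene, had 299 to 357 FPKM in Induced and 320 to 335 FPKM in Initial libraries. Il17a, the gene of interleukin-17A, had 17.5, 22.5 and 7.64 FPKM in Induced A, B and C, against 15.3, 7.34 and 8.66 FPKM in Initial A, B and C, so the groups overlapped. Markers of other cells moved with the groups. The 5 macrophage markers summed to 0.440 to 0.715 FPKM in Induced and 371 to 647 FPKM in Initial libraries. The 3 red cell markers summed to 0.688 to 0.933 FPKM in Induced and 729 to 1068 FPKM in Initial libraries. The 5 B cell markers summed to 24.2 to 46.3 FPKM in Induced and 171 to 206 FPKM in Initial libraries. The part of these cells in the results below was not tested, and in bulk RNA fewer cells of a type and less RNA per cell cannot be told apart.

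The targeted chain itself had no row. Trbc1, Trbc2, Trbd1, Trbd2 and the 14 Trbj segments counted as 0 in all 6 libraries. For the D and J segments this carries no information about the β chain, because the annotated segments are 12 to 54 bases long and no Traj, Trdj or Tcrg-J segment of the other chains had a row either. The constant regions of the other chains were listed in every library: Trac, the α chain constant gene, at 47.6 to 74.8 FPKM in Induced and 127 to 142 FPKM in Initial libraries, and Tcrg-C1 at 609 to 831 FPKM in Induced and 283 to 301 FPKM in Initial libraries. Trbc1 and Trbc2 share 283 windows of 50 bases, and 58.9% and 56.0% of their windows are found in no other gene's transcripts.

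Prss2 carried nearly all of the signal of the locus. It had 45.9, 24.4 and 84.2 FPKM in Induced A, B and C, against 275, 227 and 300.0 FPKM in Initial A, B and C. All 3 Induced libraries lay below all 3 Initial libraries, and mouse C was highest and mouse B lowest in both groups. In Induced libraries Prss2 ranked between 1058 and 3651 from the top of 16550 to 17033 listed genes, and in Initial libraries between 224 and 279 of 20419 to 21844. These levels correspond to about 427 to 1646 fragments in Induced and 3710 to 5246 in Initial libraries, so counting error is small beside the spread between mice. It made up 98.7 to 100% of the summed FPKM of the 59 genes in Induced and 97.1 to 98.3% in Initial libraries.

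Prss2 fell in Induced cells. It averaged 51.5 ± 30.3 FPKM in Induced and 268 ± 37.1 FPKM in Initial cells (SD, n = 3 each), a difference of -2.52 on the log2(FPKM + 1) scale (SE 0.42, 95% interval -3.54 to -1.49, adjusted p = 0.00206 by limma with Benjamini-Hochberg adjustment over 11265 genes). It was lower in Induced cells in 3 of 3 mice, at 16.7%, 10.7% and 28.1% of the Initial level in A, B and C. Of the 9 listed genes, 2 passed the filter of at least 1 FPKM in at least 3 libraries, Prss2 and Trbv12-2, and both were called lower at an adjusted p under 0.05. Trbv12-2 passed through the Initial libraries alone, so its fall was bound to be found and its call is a description only. Of all genes tested, 70.4% were called in either direction, 33.1% were called lower in Induced cells and 75.4% had groups that did not overlap, so a call or a gap between the groups is common here. Calls of a rise made up 37.3% of the genes tested. With no filter on low values 34.3% of 26771 genes were called, and 4 of the 9 listed genes were, Try5 and Try4 besides the first 2. Both Try5 and Try4 were at 0 in all 3 Induced libraries, so they could only be called lower. By size, the fall of Prss2 ranked 403 from the largest among the 11265. Relative to Trdc, whose own log2 fold change was 0.03 (SE 0.08) with a limma adjusted p of 0.762, Prss2 stood at 0.128, 0.0699 and 0.282 in Induced A, B and C and at 0.843, 0.709 and 0.896 in Initial A, B and C.

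**Figure D1:**
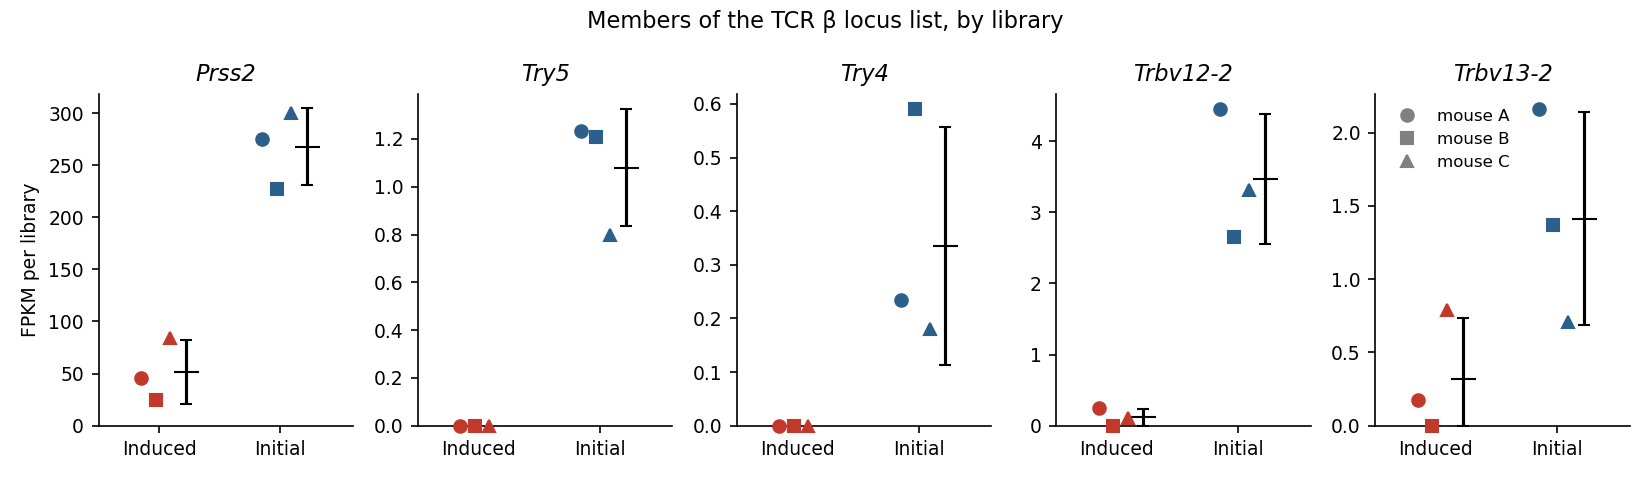
FPKM of 5 genes in each library, Induced left of Initial, with 1 point per library (symbols give the mouse) and the mean ± SD of 3 libraries as black bars, whose lower end stops at 0 and which are left out where all 3 libraries are at 0. Prss2 lies between 24.4 and 84.2 FPKM in Induced and between 227 and 300.0 FPKM in Initial libraries, while the other 4 genes stay at or below 4.45 FPKM.

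The remaining trypsinogens were near 0. Try5 was at 0 in all 3 Induced libraries, against 1.23, 1.21 and 0.798 FPKM in Initial A, B and C, or about 13.7 to 22.6 fragments. Try4 was at 0 in all 3 Induced libraries, against 0.234, 0.590 and 0.181 FPKM in Initial A, B and C, or about 3.1 to 9.5 fragments. Both were thus seen in Initial libraries only, at levels too low to pass the filter. Prss1 had 0.0633 FPKM, about 1.0 fragment, in Initial B and was at 0 in the other 5 libraries. Prss3 and Try10 had no row. In Initial libraries Prss2 was 188, 122 and 306 times the sum of the other trypsinogens in A, B and C, and in Induced libraries that sum was 0.

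These genes resemble one another, so their values can share fragments. The Prss2 transcript (GENCODE, 815 bases) was 88.1 to 89.8% identical to those of the other 5 trypsinogens. Even so, 92.2% of its 766 windows of 50 bases occur in no other annotated gene. The share was 34.4% for Try4, whose windows are most often shared with Try5, 46.1% for Try5, 45.1% for Prss1, 33.9% for Prss3 and 59.2% for Try10. By this share Prss2 was the least exposed of the 6 to how the authors' counting divided fragments between copies, and the levels of Try4, Try5 and Prss1 are uncertain.

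Genes of the pancreatic acinar cell, the known source of trypsinogens, were low in both groups. Few were above 0 in Induced libraries, and most were in Initial libraries. Of the 27 annotated acinar genes, which include elastases, carboxypeptidases, lipases and amylases, 23 had a row. In all 3 Induced libraries, where Prss2 had 24.4 to 84.2 FPKM, 18 of those were at 0, as were the 4 without a row. Their summed level was 4.37, 4.32 and 2.91 FPKM in Induced A, B and C and 10.1, 22.3 and 6.43 FPKM in Initial A, B and C. Cela1, an elastase gene, made up most of the Induced sums, at 3.86, 3.84 and 2.42 FPKM in A, B and C. By number, 4, 3 and 5 of the 27 were above 0 in Induced A, B and C, against 14, 22 and 16 in Initial A, B and C. Besides Cela1, the protease gene Ctrl and the acinar factor gene Bhlha15 were above 0 in all 6 libraries, with Ctrl at 0.202 to 0.319 FPKM in Induced and 0.281 to 1.47 FPKM in Initial libraries. Ptf1a, which encodes the master regulator of acinar cells, and the elastase gene Cela3a had no row.

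Initial B stood apart in these genes. It held the highest value of 20 of the 27, among them the lipase gene Pnlip at 2.22 FPKM against 0.423 and 0.244 FPKM in Initial A and C, and the amylase gene Amy2a5 at 2.09 FPKM against 0.191 and 0.169 FPKM. The same library had the highest Try4 of the 6 libraries and the only Prss1, and the lowest Prss2 of the 3 Initial libraries. This rests on 1 library, and the part of RNA from acinar cells in the level of Prss2 was not tested. Without Initial B the log2 fold change of Prss2 was -2.63 (limma adjusted p = 0.0055). Of the acinar list only Cela1 passed the filter. It was called lower, at 3.37 ± 0.826 FPKM in Induced and 5.70 ± 1.54 FPKM in Initial cells (log2 fold change -0.61, limma adjusted p = 0.028). The limma adjusted p was 0.0683 when Induced C was left out, 0.0927 when Initial A was, and 0.0728 when Initial B was. It was 0.0667 with no filter on low values and 0.0965 after scaling each library to its CD3 chain and Trdc levels.

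The β chain V segments were close to the limit of detection, with 2 neighbours above the rest. The annotation holds 35 Trbv genes, of which 13 are pseudogenes. A row was found for 5 of the 22 others, or 22.7%, and for 0 of the pseudogenes. For comparison, 72.2% of 108 Trav segments and all 5 Trdv and 6 Tcrg-V segments had a row. The summed level of the Trbv segments was 0.422, 0 and 1.11 FPKM in Induced A, B and C, against 6.86, 4.02 and 4.13 FPKM in Initial A, B and C. The Trav segments of the same libraries summed to 165 to 249 FPKM in Induced and 632 to 694 FPKM in Initial libraries. Unlike those of the trypsinogens, the transcripts of the listed V segments share almost no windows with other genes, with 98.8 to 100% of windows of 50 bases unique.

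Trbv12-2 (chromosome 6, 41118851 to 41119364) had 0.245, 0 and 0.107 FPKM in Induced A, B and C, against 4.45, 2.65 and 3.31 FPKM in Initial A, B and C. In fragments this is about 1.9, 0 and 1.0 in Induced and 39.1, 20.4 and 27.4 in Initial libraries. The groups did not overlap. Its log2 fold change was -1.99 (SE 0.17, limma adjusted p = 2.01e-05), or -4.18 with a pseudocount of 0.1 and -0.72 with a pseudocount of 5. It passed the filter through the Initial libraries alone, so a fall was bound to be found and is given here as a description.

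Trbv13-2, which starts 2.0 kb after the end of Trbv12-2 (chromosome 6, 41121396 to 41121832), had 0.177, 0 and 0.787 FPKM in Induced A, B and C, against 2.16, 1.37 and 0.710 FPKM in Initial A, B and C. Induced C, with about 6.4 fragments, was above Initial C, with about 5.2, so the groups overlapped. In mice A and B it was lower in Induced cells. Together these 2 segments made up 96.3 to 100% of the Trbv signal of the Initial libraries, and 100% and 80.4% of that of Induced A and C.

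The rest of the V segments amounted to single fragments. Trbv1 had 0.0993 FPKM in Induced C and 0.114 FPKM in Initial C, about 1.0 fragment in each. Trbv16 had 0.119 FPKM in Induced C, about 1.1 fragments, and Trbv15 had 0.256 FPKM in Initial A, about 2.2 fragments. At this depth no difference between the groups was detectable for these 3. Trbv31, the V segment placed downstream of the constant regions, had no row.

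The last 60 bases of the 2 leading V segments, which run up to the point where recombination would join them, are shown beside those of 3 relatives in the array, none of which had a row. Capitals mark bases that differ from the first sequence of each set (GENCODE transcripts, GRCm38, plus strand), and every sequence carries tgtgccagc, whose first codon is the conserved cysteine near the end of a V segment.
Trbv12-2, chr6:41119305-41119364: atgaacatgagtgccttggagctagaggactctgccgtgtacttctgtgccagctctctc
Trbv12-1, chr6:41114008-41114067: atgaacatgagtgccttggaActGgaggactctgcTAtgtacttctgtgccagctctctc
Trbv13-2, chr6:41121773-41121832: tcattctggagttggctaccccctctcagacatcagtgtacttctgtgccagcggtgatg
Trbv13-1, chr6:41116409-41116468: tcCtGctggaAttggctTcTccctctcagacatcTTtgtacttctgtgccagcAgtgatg
Trbv13-3, chr6:41130526-41130585: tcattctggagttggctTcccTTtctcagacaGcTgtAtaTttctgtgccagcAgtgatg
Over whole transcripts Trbv12-2 was 88.3% identical to Trbv12-1, and Trbv13-2 was 88.7% identical to Trbv13-1 and 90.6% to Trbv13-3. Within the 60 bases Trbv12-1 differed at 4 positions, and Trbv13-1 and Trbv13-3 at 8 each.

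Of the 59 genes, those with more than about 3 fragments in a library lay in 3 places along the locus: at Trbv12-2 and Trbv13-2, 414.4 and 411.8 kb before Trbd1, at Try4 and Try5, 230.9 and 222.0 kb before it, and at Prss2, which starts 11.4 kb before it. The 22 other annotated genes of the span, which include protein-coding genes and pseudogenes, had 2 rows, with no value above 0.275 FPKM. The genes listed as neighbours on the chromosome were unlike one another, and several lay far from the locus. Of 18 such genes, 17 outside the locus and Prss58 between Trbv1 and the next V segments, 6 were tested, all of them outside it, of which Agk, a lipid kinase gene, rose, Ephb6 and Zyx fell and 3 did not pass, with a median log2 fold change of -0.02 against 0.03 over all genes tested. Over all genes tested 37.3% rose and 33.1% fell. After scaling to the CD3 chains and Trdc, 3 of the 6 rose and 2 fell. Ssbp1, which encodes a mitochondrial DNA-binding protein, did not pass (log2 fold change 0.26, limma adjusted p = 0.0667) but rose with the mouse as replicate block (adjusted p = 0.0187). Relative to the start of Trbd1, Agk starts at -1208.0 kb, Ssbp1 at -1061.8 kb, Ephb6 at 72.3 kb and Zyx at 816.4 kb.

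Ephb6, an ephrin receptor gene and the first protein-coding gene beyond the locus, starts 57.1 kb after the end of Trbc2. It had 2.42, 2.48 and 2.94 FPKM in Induced A, B and C, against 7.22, 5.90 and 6.64 FPKM in Initial A, B and C. Every Induced library was below every Initial one, and the log2 fold change was -1.07 (SE 0.11, limma adjusted p = 6.49e-05). Zyx, which encodes the adhesion protein zyxin, had 147 ± 16.9 FPKM in Induced and 205 ± 13.2 FPKM in Initial cells (SD, n = 3 each, log2 fold change -0.48, limma adjusted p = 0.00222). On the V side Moxd2, the nearest protein-coding gene before Trbv1, had at most 0.0430 FPKM in any library.

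**Figure D2:**
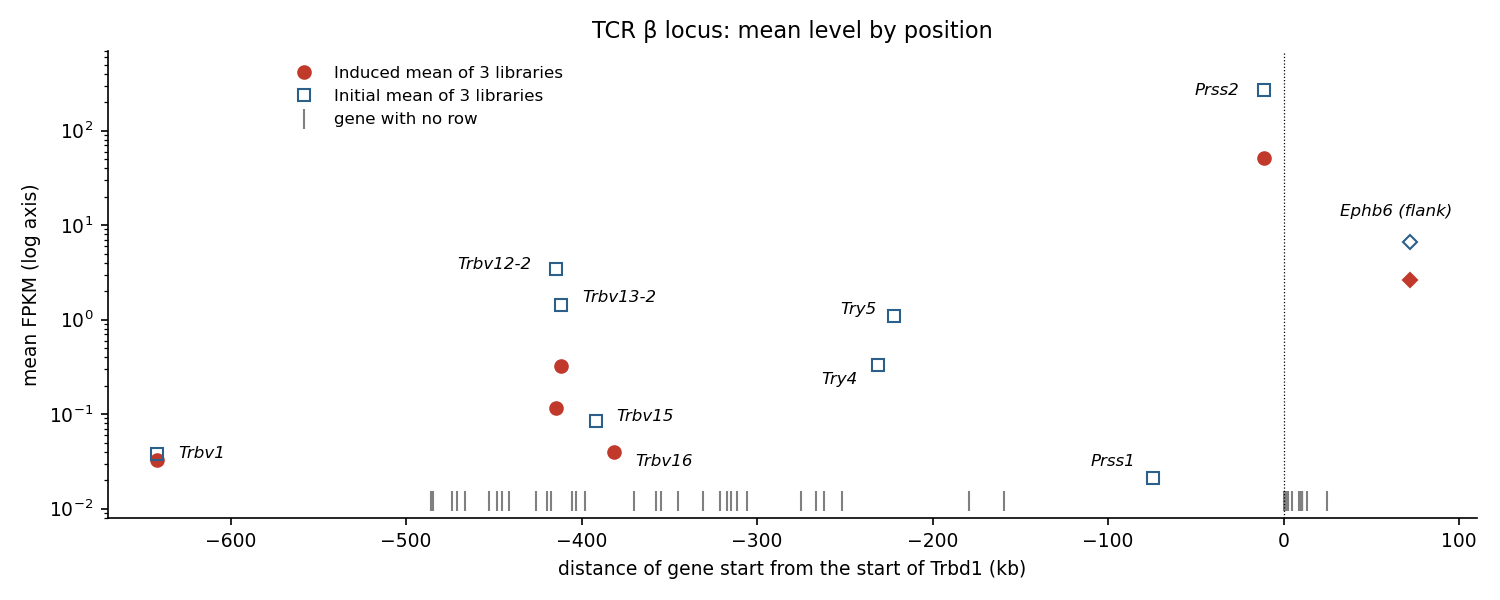
Mean FPKM of 3 libraries per group on a log axis, against the distance of each gene's start from the start of Trbd1 in kb, with filled symbols for Induced and open symbols for Initial cells, a group at 0 not drawn, and grey ticks for genes without a row. Prss2, 11.4 kb before Trbd1, has the highest mean of the locus in both groups, 51.5 FPKM in Induced and 268 FPKM in Initial cells.

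The order of the mice in Prss2 recurred in Trac, Cd8b1 and Cd8a. These were read, with Cd4, from a list of αβ T cell markers, because the β chain belongs to that lineage. All animals were TCRβ-/-, and Trbc1 and Trbc2 of the same list had no row. Trac, Cd8b1, Cd8a and Cd4 are thus not taken here as a measure of αβ T cells. Trac had 51.4, 47.6 and 74.8 FPKM in Induced A, B and C, against 132, 127 and 142 FPKM in Initial A, B and C. Cd8b1, the β chain of the CD8 coreceptor, had 18.4, 8.40 and 42.1 FPKM in Induced A, B and C, against 50.2, 37.7 and 63.5 FPKM in Initial A, B and C. Cd8a had 6.50, 4.40 and 14.8 FPKM in Induced A, B and C, against 12.0, 8.69 and 13.8 FPKM in Initial A, B and C. In each of these genes, as in Prss2, mouse C was highest and mouse B lowest in both groups. So were 741 of the 11265 genes tested, or 6.58%. Cd4 had another order, with 0.185, 0.178 and 0.0858 FPKM in Induced A, B and C, against 2.03, 3.49 and 3.51 FPKM in Initial A, B and C.

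Of these genes Trac (log2 fold change -1.22, SE 0.16, limma adjusted p = 0.000276) and Cd4 (-1.78, SE 0.17, adjusted p = 3.91e-05) fell in Induced cells. Cd4 passed the filter through the Initial libraries alone. Cd8b1 did not pass, with a log2 fold change of -1.34 (SE 0.54, limma adjusted p = 0.0663), nor did Cd8a (-0.51, SE 0.40, adjusted p = 0.29). With the mouse as replicate block the limma adjusted p of Cd8b1 was 0.0291. Without Induced C both passed, with log2 fold changes of -1.90 and -0.95 and limma adjusted p-values of 0.00975 and 0.00523. Which cells carried Prss2 and these genes was not tested.

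**Figure D3:**
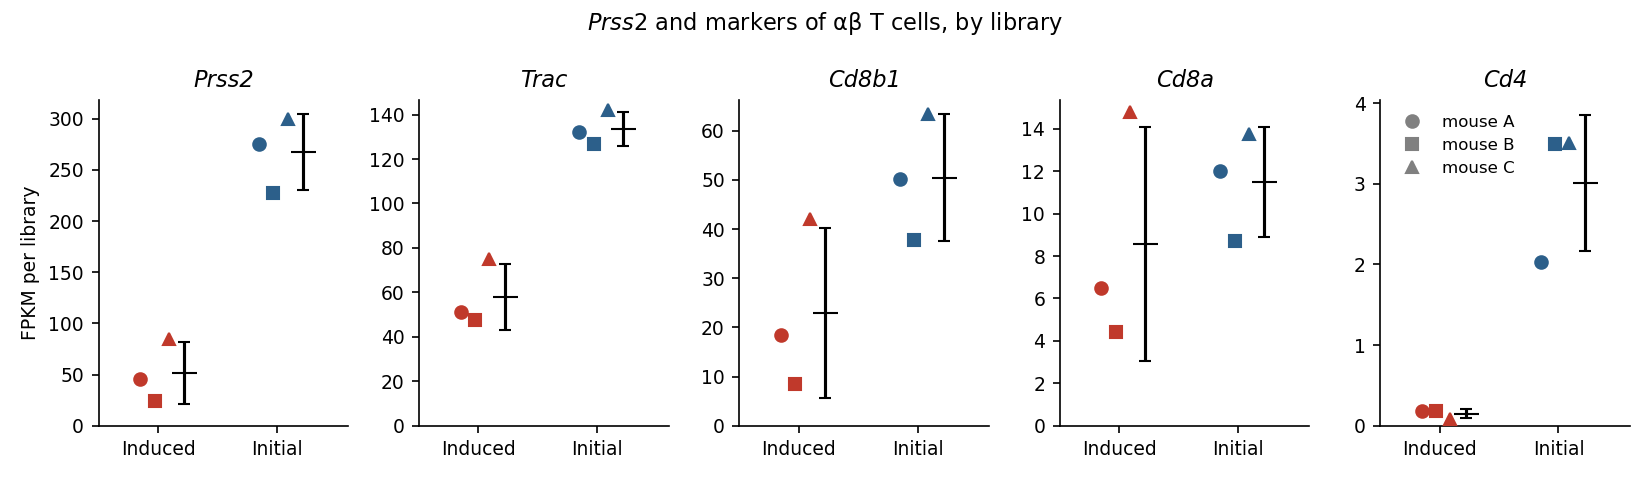
FPKM per library of Prss2, Trac, Cd8b1, Cd8a and Cd4, Induced left of Initial, with 1 point per library (symbols give the mouse) and the mean ± SD of 3 libraries as black bars. In the first 4 genes the triangle of mouse C is the highest and the square of mouse B the lowest point of each group.

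The constant regions of the other chains and the CD3 subunits, the signalling chains that the β chain would pair with at the cell surface, moved in both directions. Of 10 genes tested, 4 rose, 3 fell and 3 did not pass, with a median log2 fold change of -0.02. This is near the share over all genes tested, of which 70.4% were called, 37.3% as rises and 33.1% as falls. After scaling to the CD3 chains and Trdc, which are themselves in this list, 6 of the 10 rose and 2 fell. Tcrg-C1 rose to 746 ± 120 FPKM in Induced cells, against 292 ± 8.71 FPKM in Initial cells, and Tcrg-C2 to 494 ± 28.8 FPKM in Induced cells, against 346 ± 11.8 FPKM in Initial cells (limma adjusted p = 2.54e-05 and 0.000268). Tcrg-C1 and Tcrg-C2 are closely related copies, so the split of fragments between them is uncertain. Besides Trac, Cd3e fell, with 220 ± 5.01 FPKM in Induced and 318 ± 12.6 FPKM in Initial cells (limma adjusted p = 0.000118).

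Part of the machinery that would rearrange the locus had no row or very low values. Rag1 had at most 0.0246 FPKM in any library, and Rag2, its partner in the recombinase, and Ptcra, the surrogate α chain that pairs with a new β chain, had no row. Dntt, the enzyme that adds bases at the joins, had 0.0527, 0.104 and 0 FPKM in Induced A, B and C, against 4.36, 4.26 and 4.21 FPKM in Initial A, B and C. The groups lay far apart, and Dntt passed the filter through the Initial libraries alone. Of the 13 genes of this list 9 were tested, of which 2 rose, 4 fell and 3 did not pass, with a median log2 fold change of -0.08. Calls made up 70.4% of all genes tested, so the number called in this list is near that share. After scaling to the CD3 chains and Trdc, 4 of the 9 rose and 1 fell. The DNA end-binding gene Xrcc6 (46.7 ± 0.648 FPKM in Induced and 28.1 ± 1.33 FPKM in Initial cells) and the polymerase gene Poll rose. Besides Dntt, the polymerase gene Polm fell, with 5.72 ± 0.635 FPKM in Induced and 8.26 ± 0.528 FPKM in Initial cells (limma adjusted p = 0.00381), a call lost after that scaling (adjusted p = 0.0738).

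Of the factors known to bind the β chain enhancer or its promoters, 9 were listed and tested. In Induced cells 5 fell, 2 rose and 2 did not pass, with a median log2 fold change of -0.26. Over all genes tested 33.1% fell and 37.3% rose, 70.4% together, with a median of 0.03, so calls are common here. After scaling to the CD3 chains and Trdc, 3 of the 9 fell and 2 rose. Ets1 had 151, 145 and 149 FPKM in Induced A, B and C, against 360, 403 and 326 FPKM in Initial A, B and C. Gata3, a T lineage factor, had 26.6, 32.5 and 30.1 FPKM in Induced A, B and C, against 58.9, 59.4 and 56.9 FPKM in Initial A, B and C. For both, every Induced library was below every Initial one. Their log2 fold changes were -1.28 (SE 0.08) and -0.95 (SE 0.08), with limma adjusted p-values of 5.33e-06 and 2.11e-05. Cbfb, the partner of the RUNX factors, rose to 132 ± 3.06 FPKM in Induced cells, against 72.2 ± 4.18 FPKM in Initial cells (limma adjusted p = 1.16e-05). Runx1 had a log2 fold change of 0.11 (SE 0.14, limma adjusted p = 0.508) and did not pass, but without Induced C it was called higher (0.27, adjusted p = 0.0281). Ctcf, a factor that folds chromatin into loops, was called higher by a small amount (log2 fold change 0.18, SE 0.06, limma adjusted p = 0.0297). That call was lost when any 1 library was left out, with limma adjusted p-values of 0.0512 to 0.0726, and with the mouse as replicate block (adjusted p = 0.0504).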

How the data were processed

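Messenger RNA libraries (VAHTS v2 kit) were sequenced, and the authors obtained FPKM of coding genes from Cuffdiff, per the labels' protocols. The submitters' processing notes name CASAVA, HISAT2 2.0.5, Cuffdiff 1.3.0 and 2.2.1 and the build mm9, but the deposited positions of all 9 genes matched GENCODE M21 (GRCm38) to the base, allowing for a start counted from 0, and positions are given on that build. The treatment of strand was not given in the sources used here. No deposited FPKM is 0, and a gene without a row was taken as 0.

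The genes, lists and tests were chosen with earlier results of these data known. The labels name the mouse of each library, which pairs the groups by animal. Deviations from the group means correlated at 0.0393, 0.0307 and 0.131 between libraries of mice A, B and C, and at -0.132 to 0.0988 between different mice. Whether a mouse gave 1 or more cultures was not given in the sources used here. Genes reaching 1 FPKM in 3 or more of the 6 libraries entered limma 3.58.1 (R 4.3.3; log2(FPKM + 1), trend, robust, two-sided, no block), with Benjamini-Hochberg adjustment over all genes tested, and were called at an adjusted p under 0.05. Values are mean ± SD over 3 libraries. The fit was also run on simulated data in which far fewer genes changed than were called here. That run is not used as support. Depth was read from the step of 1 fragment in FPKM times length. Of low values, 45.2 to 48.8% were whole multiples to within 0.15, where 30% of evenly spread values would be. The step was set from the same low values, so this share is no independent check of the depth.

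Named in full were the trypsinogens and β chain segments with a row and, from each other list, the 2 largest rises and falls among called genes and defining genes at 0. The cell type markers, Ctrl, Bhlha15, Moxd2, Ssbp1 and Runx1 were named after their values were seen. Of the acinar symbols, Spink3 is an older name of Spink1 and was counted once. As alternatives, the pseudocount was set to 0.1 or 5, and the other settings were no filter, a filter at FPKM 5, trimmed-mean (TMM-like) scaling, scaling to Trdc with Cd3d, Cd3e, Cd3g and Cd247, a block for the mouse, limma without its trend and robust options, and each library left out in turn. Windows and identities were computed with Python 3.11.15 and Biopython 1.88, and figures with matplotlib 3.10.9.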

Additional observations from a re-analysis of the deposited data

How the results depend on the processing

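Prss2 kept its direction and its call under all 14 alternatives, with log2 fold changes of -2.95 (without Induced C) to -2.08 (without Induced B) and limma adjusted p-values of 0.000293 to 0.0136. With the mouse as replicate block the difference was -2.52 (limma adjusted p = 0.00404), and the called genes of the β locus were again 2. Besides Prss2 this was Trbv12-2, which passed the filter through the Initial libraries alone and could only be called lower. Of the other named genes the block moved Cd8b1 (adjusted p = 0.0291) and Ssbp1 (0.0187) past the threshold and Ctcf short of it (0.0504), and changed no other call. The count of called β locus genes was 4 with no filter on low values, which added Try5 and Try4, and 1 with the filter at FPKM 5, where Trbv12-2 was not tested. With 1 library left out it ran from 1 to 2, being 1 without any of the Initial libraries, because Trbv12-2 then no longer passed the filter. All genes called numbered 7931, with the mouse as replicate block 7943, and 6710 to 7533 with 1 library left out. Scaling to the CD3 chains and Trdc raised all fold changes by a median of 0.21, and 66.8% of calls were then rises, against 52.9% as deposited. Under it Trdc was called, at 0.26. The acinar list had 1 call, but 2 with no filter and 0 with that scaling (limma, 0 also at an unadjusted p under 0.05). It had 0 with the filter at FPKM 5, where none was tested, and 0 to 1 with 1 library left out (0 without Induced C, Initial A or Initial B, with 1, 0 and 1 at an unadjusted p under 0.05). The flanking list had 3 calls, but 5 with no filter and 5 with the CD3 and Trdc scaling, and 4 with the mouse as replicate block or without Initial C, each time by Ssbp1. The recombination list had 6 calls, and 3 to 5 with 1 library left out, the 3 being without Initial A, where 2 rose and 1 fell. It had 5 with the CD3 and Trdc scaling, of which 4 rose and 1 fell. The cause of these changes was not tested. None of the named called genes reversed under these alternatives, and the other genes were not checked for it. Depth limits the V segments other than Trbv12-2 and Trbv13-2, at about 1 to 2 fragments.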
